A study of Arabidopsis thaliana with 4 samples.

Results

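The genes described here encode proteins of the cytosolic ribosome of Arabidopsis thaliana, and they are 47 named gene IDs of the 33610 in the deposited count table. The rule that chose them used their known products and no measured value, though earlier results of these data were known when it was written. Of the 47 genes, 29 encode proteins of the large 60S subunit, 15 proteins of the small 40S subunit, 2 the acidic P proteins of the ribosomal stalk, and 1 is RACK1A, a scaffold protein on the small subunit. Most of the 47 carried a ribosomal protein name in the RefSeq annotation, in some with another family number. Others had a general name, such as SH3-like family protein for RPL21A and RPL26A and WD40 repeat-like protein for RACK1A. They came from 39 of the 80 cytosolic ribosomal protein families and are set beside 180 other genes of the 80 families, which makes 227 listed genes in all. The samples were seedlings 2 weeks old of the ecotype Col0, grown on MS-based medium. They were either wild type or carried a mutation of the long intergenic noncoding RNA lincRNA11195, and each genotype was left untreated or given abscisic acid (ABA) for 12 h. Each of the 4 groups had 3 biological replicates, per the series text. The labels name 1 mutant line, so effects of that mutation and of other differences between the lines cannot be told apart. The label of untreated wild type (Col_12_CK) holds a 12 that the labels of the other groups lack. Whether it marks a time of sampling is not known here. The ABA dose is not stated in the sources used here, and the lincRNA11195 transcript itself was not analysed here.

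Every cell makes its proteins on cytosolic ribosomes, and in plants each ribosomal protein is encoded by a small family of nearly alike genes, the paralogs. Transcripts of the families are known to be made in nearly fixed proportions, to be abundant in growing tissue, and to follow sugar and the kinase TOR, which promotes growth. ABA is the hormone of drought and salt stress, which slows seedling growth. Values are CPM, the counts of a gene relative to its library's total, scaled with TMM factors. Changes are log2 fold changes from 1 edgeR model of all 12 libraries, and a gene was called changed when its Benjamini-Hochberg adjusted p was under 0.05 over the 21322 genes tested. All 47 genes passed the filter on low counts, with 2990 (RPSaB) to 245865 (RPL3A) counts summed over the libraries. Because the RNA came from whole seedlings, fewer cells of a type and less RNA per cell cannot be told apart.

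Libraries held 14691544 to 22477294 counts. The treatment labels fitted the ABA-induced markers RD29A, RD29B and RAB18, which were called higher under ABA in both genotypes (3 of 3). They summed to 40.6 to 126 CPM in wild type untreated, 1320 to 2420 with ABA, 30.2 to 49.8 in the untreated mutant and 1090 to 1360 in the mutant with ABA. Wild type untreated replicate 1 was the highest of its group for each of the 3, and RAB18 was called lower in the untreated mutant than in untreated wild type (-3.64, adjusted p = 0.00668). The 3 green-tissue markers RBCS1A, LHCB1.3 and LHCB2.1 summed to 20500 to 26300 CPM in wild type untreated, 5470 to 6140 in wild type with ABA, 3770 to 7920 in the untreated mutant and 2930 to 5180 in the mutant with ABA. The 5 markers of dividing cells (CYCB1;1, CDKB2;1, KNOLLE, CDC20.1, AUR1) summed to 238 to 282, 115 to 162, 172 to 209 and 122 to 162 CPM in the same order, and the 3 root markers (CASP1, EXPA7, COBL9) to 24.5 to 41.2, 11.4 to 13.4, 4.56 to 21.3 and 4.42 to 10.1. No defining marker was at 0 in any library. In wild type the green-tissue, dividing-cell and root sums were lower with ABA without overlap. In the mutant the green-tissue and root ranges overlapped between untreated and ABA libraries. KNOLLE and EXPA7 were called in none of the comparisons between groups. The part of these markers in the results on ribosomal protein genes was not tested. Single libraries also moved most ribosomal protein genes together. Wild type untreated replicate 2 was the highest of its group for 45 of the 47 genes, mutant untreated replicate 1 the lowest for 42, wild type ABA replicate 1 the lowest for 42, and mutant ABA replicate 3 the highest for 47.

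Promoters of ribosomal protein genes are known for a pair of short motifs, the telo box (AAACCCTA) and site II (TGGGCC or TGGGCT, bound by TCP transcription factors). The core ACGTG of the ABA-responsive element was searched beside them, on both strands, in the 250 bases before each gene's annotated start in RefSeq's TAIR10.1 annotation. No motif contains another, and matches that overlap were counted separately. Site II lay before 30 of the 47 genes (63.8%), before 69.4% of the 180 other cytosolic ribosomal protein genes, and before 19.2% of 27443 nuclear protein-coding genes. The telo box lay before 7 (14.9%), against 21.7% and 4.49%, and the ABA element core before 7 (14.9%), against 20.6% and 22.9%. Of the sequences shown, RPL24B had the most telo box and site II matches (5) and RPL8A fell most under ABA. RPL12A, which holds both motifs and whose ABA response differed between genotypes, and RPS24A, the gene of the 47 that changed least under ABA in wild type, were chosen after their values were seen. Each line gives, 5′ to 3′ on the gene's strand, the 250 bases that end just before the annotated start, with telo box and site II matches in capitals (GGCCCA and AGCCCA are site II on the other strand, and none of the 4 windows holds the ABA element core); RPL24B is on chromosome 3 (minus strand), RPL8A on chromosome 2 (plus), RPL12A on chromosome 2 (minus) and RPS24A on chromosome 3 (plus).
RPL24B: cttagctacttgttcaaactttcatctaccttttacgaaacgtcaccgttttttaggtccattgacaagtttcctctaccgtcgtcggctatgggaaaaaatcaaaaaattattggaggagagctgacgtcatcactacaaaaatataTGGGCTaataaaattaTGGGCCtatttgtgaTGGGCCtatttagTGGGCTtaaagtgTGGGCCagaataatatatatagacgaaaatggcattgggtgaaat
RPL8A: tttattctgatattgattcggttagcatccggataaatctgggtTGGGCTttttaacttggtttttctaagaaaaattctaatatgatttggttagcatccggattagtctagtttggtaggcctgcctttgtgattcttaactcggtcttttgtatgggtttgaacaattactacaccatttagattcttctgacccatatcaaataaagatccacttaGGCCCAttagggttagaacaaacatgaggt
RPL12A: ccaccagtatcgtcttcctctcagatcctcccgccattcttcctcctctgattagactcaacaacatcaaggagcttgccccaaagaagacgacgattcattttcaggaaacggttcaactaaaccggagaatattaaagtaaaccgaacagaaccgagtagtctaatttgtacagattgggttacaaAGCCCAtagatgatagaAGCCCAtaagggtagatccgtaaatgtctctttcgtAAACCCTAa
RPS24A: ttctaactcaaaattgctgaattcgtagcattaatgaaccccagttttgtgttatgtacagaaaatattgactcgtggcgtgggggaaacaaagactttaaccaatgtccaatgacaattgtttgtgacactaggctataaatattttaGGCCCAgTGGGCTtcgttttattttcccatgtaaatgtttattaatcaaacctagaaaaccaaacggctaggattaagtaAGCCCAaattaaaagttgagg

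The 5 site II matches of RPL24B lay within the last 102 bases before the start, while those of RPL8A began 206 and 30 bases before it. RPS24A had 3 site II matches and RPL12A had 2, plus a telo box that began 9 bases before its start. Genes with and without a motif had overlapping ranges of response. Under ABA in wild type the median log2 fold change was -1.77 over the 30 genes with site II (range -3.75 to -0.52) and -1.94 over the 17 without it (-3.38 to -0.60). For the 7 genes with the telo box it was -1.94 (-2.55 to -1.82), and for the 40 without it -1.68 (-3.75 to -0.52). For the 7 with the ABA element core it was -1.88, against -1.77 for the 40 without. These are descriptions of short windows, and a match is not evidence of binding.

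Per kilobase of exon, the 47 genes spanned a wide range in untreated wild type, with a median of 471 CPM per kb. The highest were RPS8A (AT5G20290) at 1262, RPL19A (AT1G02780) at 1167 and RPL17B (AT1G67430) at 1114 CPM per kb, then RPL3A at 993 and RPL5A at 968. Neighbours among these 5 differed by less than the spread between replicates. That spread was largely shared, with replicate 2 the highest for 45 of the 47 genes and replicate 3 the lowest for 46. The 2 lowest stood far below the rest, RPL11A (AT2G42740) at 49.4 and RPSaB (AT3G04770) at 19.8 CPM per kb. The median was 151 CPM per kb in wild type with ABA, 269.0 in the untreated mutant and 133 in the mutant with ABA. RPL5A was the highest of the 47 in those 3 groups, with 428, 839 and 429.9 CPM per kb. Together the 47 genes took 2.67 ± 0.625% of all counts in untreated wild type (mean ± SD, n = 3), 0.959 ± 0.184% with ABA, 1.80 ± 0.344% in the untreated mutant and 0.856 ± 0.285% in the mutant with ABA. In the plot of shares of counts the 3 ABA libraries of each genotype lay below its 3 untreated libraries. For all 227 genes the shares were 7.36 ± 1.86%, 2.73 ± 0.514%, 4.99 ± 0.899% and 2.48 ± 0.862%.

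**Figure D1:**
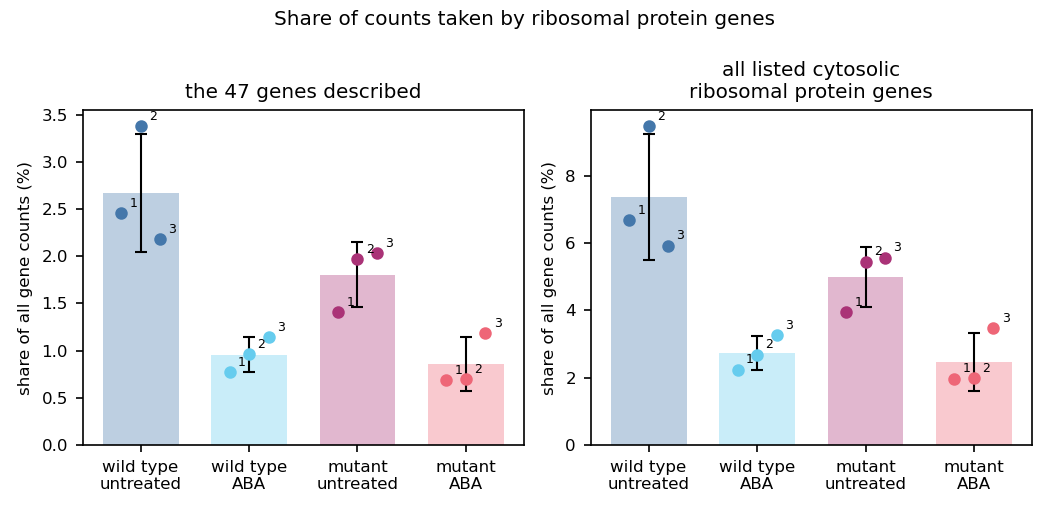
Share of all gene counts (%, before TMM scaling) in each of the 12 libraries, for the 47 genes (left) and for all 227 listed cytosolic ribosomal protein genes (right). Bars are means, error bars SD (n = 3), points libraries with their replicate number; the shares in untreated wild type (2.67 ± 0.625% for the 47 genes) were above those with ABA (0.959 ± 0.184%).

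The first comparison asked what ABA did in wild type seedlings. Of the 47 genes, 46 fell and none rose, where 28.2% of all genes tested were called lower and 25.2% higher. The median log2 fold change was -1.79, against -0.03 over all genes tested, and single genes ranged from -3.75 to -0.52. That median was -1.52 after a correction for GC content and length, and -1.94 to -1.48 when single libraries of these groups were left out. All 29 genes of the 60S subunit fell (median -1.79), as did 14 of the 15 of the 40S subunit (median -1.67), both P protein genes and RACK1A. The libraries of the 2 groups did not overlap for 46 of the 47 genes, against 62.5% of all genes tested.

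**Figure D2:**
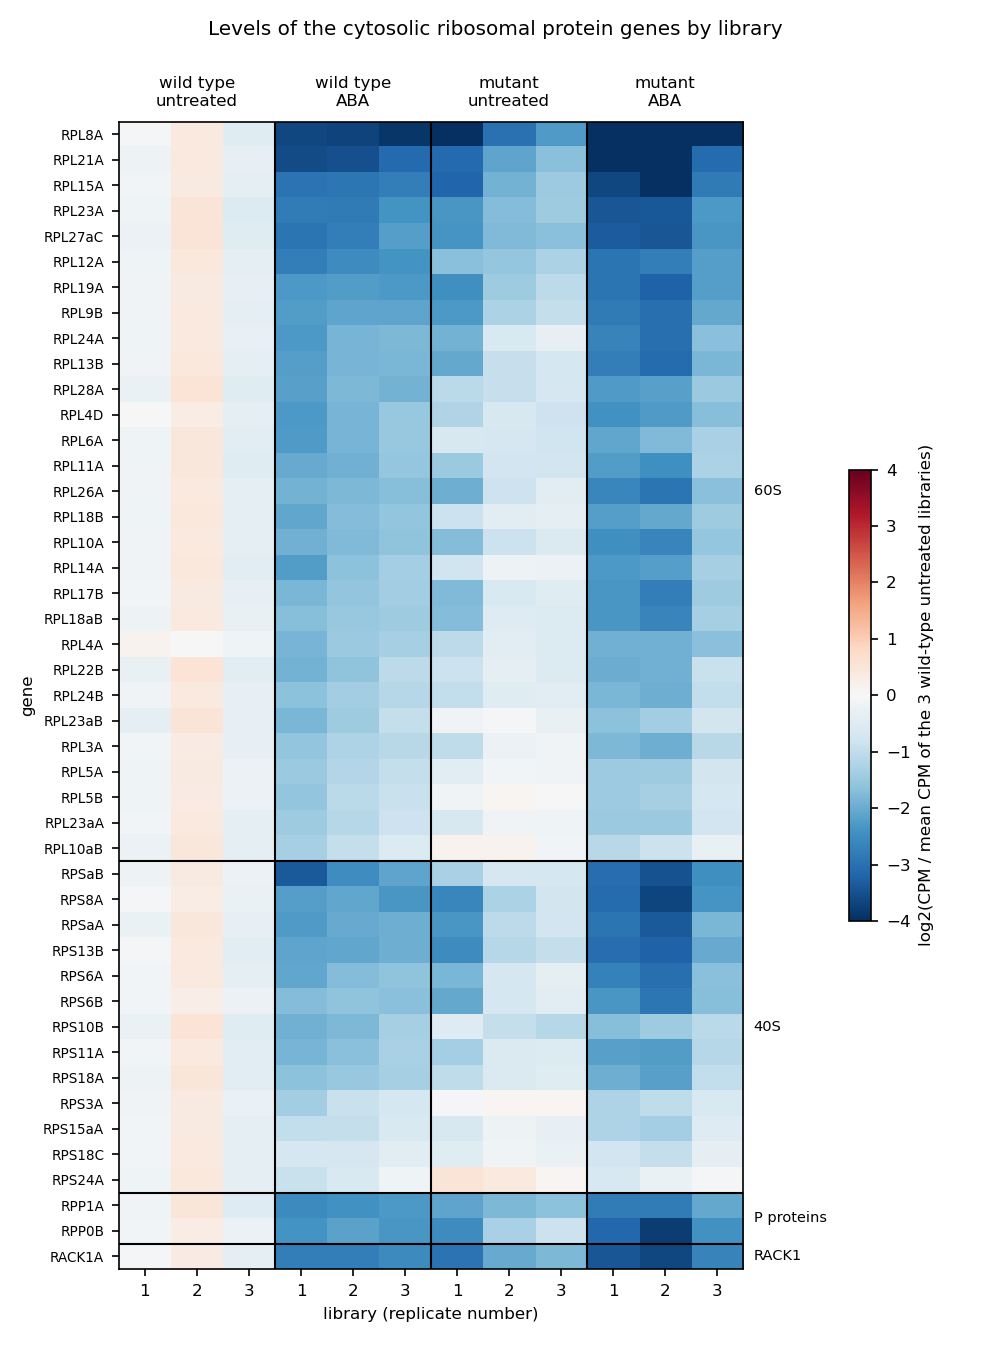
Level of 45 of the 47 genes (rows, grouped by subunit and ordered by the ABA response in wild type) in each of the 12 libraries (columns), as log2 of CPM over the mean of the 3 wild-type untreated libraries; values beyond -4 are drawn at -4. Wild type ABA columns are blue for nearly all genes, the untreated mutant lies between, and mutant ABA replicate 3 is paler than the other 2 libraries of its group.

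The largest fall was in RPL8A (AT2G18020), whose protein lies near the site of peptide bond formation. RPL8A measured 783, 1046 and 579 CPM in the 3 untreated wild type libraries and 64.1, 61 and 54.4 CPM with ABA, a log2 fold change of -3.75 ± 0.51 (SE, adjusted p = 6.46e-05). Every ABA library was far below every untreated one. RPL21A (AT1G09590), another 60S protein gene, measured 341, 514 and 310.4 CPM untreated and 32.8, 34.2 and 44.8 with ABA, -3.38 ± 0.39 (SE, adjusted p = 2.02e-05). RPL15A (AT4G16720) measured 522, 729 and 439 CPM untreated and 73.3, 76.1 and 82 with ABA, -2.87 ± 0.41 (SE, adjusted p = 0.000102). In these 3 genes the ABA libraries lay close together and the untreated ones were spread, with replicate 2 highest.

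Among 60S proteins at the catalytic core and the exit tunnel, the log2 fold change under ABA was -1.30 for RPL3A (AT1G43170) and -1.76 for RPL10A (AT1G14320). RPL4, whose long arm reaches into the exit tunnel, gave -1.53 for RPL4A (AT3G09630) and -1.86 for RPL4D (AT5G02870). After a correction for GC content and length these were -0.80 and -1.21. RPL17 and RPL26 also line the tunnel or its exit, where RPL23a docks factors that receive the new chain. Their changes were -1.58 for RPL17B (AT1G67430), -1.79 for RPL26A (AT3G49910), -1.11 for RPL23aA (AT2G39460) and -1.36 for RPL23aB (AT3G55280). The 5S rRNA partners RPL5 and RPL11 gave -1.18 for RPL5A (AT3G25520) and -1.15 for RPL5B (AT5G39740) and -1.82 for RPL11A. RPL23, which contacts the anti-association factor eIF6, and the intersubunit bridge proteins RPL19 and RPL24 gave -2.67 for RPL23A (AT1G04480), -2.27 for RPL19A, -1.97 for RPL24A (AT2G36620) and -1.37 for RPL24B (AT3G53020), the gene known as SHORT VALVE1. RPL12A (AT2G37190), at the base of the stalk, measured 372, 557 and 327 CPM untreated and 61.4, 72.7 and 80.6 with ABA, -2.55 ± 0.24 (SE, adjusted p = 3.85e-06). Its ABA libraries all lay far below the lowest untreated one.

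The other 60S genes were lower with ABA as well. RPL9B (AT1G33120), of the family of the leaf-shape gene PIGGYBACK2, changed by -2.16, and RPL10aB (AT2G27530), known as PIGGYBACK1, by -0.91, the smallest change of the 60S genes. RPL28A (AT2G19730), known for its part in leaf polarity, changed by -1.94, and RPL27aC (AT1G70600), known for dosage effects on embryo and shoot growth, by -2.60. The remaining genes gave -1.85 for RPL6A (AT1G18540), -1.96 for RPL13B (AT3G49010) and -1.69 for RPL14A (AT2G20450), and -1.77 for RPL18B (AT3G05590), -1.54 for RPL18aB (AT2G34480) and -1.48 for RPL22B (AT3G05560). Each of these falls passed the test. Reads of 4 of the 47 genes could be hard to assign, since over 10% of their exonic stretches of 50 bases also occur in another gene: RPL9B (53.7%, RPL9C), RPL6A (42.2%, its neighbour AT1G18530), RPL21A (13.1%, RPL21C) and RPL17B (10.2%, AT1G67440). For 29 of the 47 no such stretch was shared.

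In the 40S subunit the largest fall was in RPSaB, of a family that sits near the mRNA exit. RPSaB measured 25.4, 37.5 and 24.6 CPM untreated and 2.86, 5.21 and 6.79 with ABA, -2.55 ± 0.32 (SE, adjusted p = 3.98e-05), and its groups did not overlap. Its far more abundant paralog RPSaA (AT1G72370) changed by -2.07 (-1.13 after the correction for GC content and length). RPS8A, the highest of the 47 per kilobase in untreated wild type, measured 1322, 1723 and 1184 CPM untreated and 309, 334 and 281 with ABA, -2.19 ± 0.41 (SE, adjusted p = 0.00073). RPS6 is the protein that S6 kinase phosphorylates downstream of TOR, and its paralogs RPS6A (AT4G31700) and RPS6B (AT5G10360) changed by -1.80 and -1.68. RPS6A measured 915, 1304 and 769.9 CPM untreated and 235, 297 and 328 with ABA, with no overlap. The genes known as POINTED FIRST LEAF, RPS18A (AT1G22780) and RPS13B (AT4G00100), changed by -1.49 and -2.04. RPS10B (AT5G41520) changed by -1.67 and RPS11A (AT3G48930) by -1.59.

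The 3 smallest changes of the 47 were also in this subunit. RPS24A (AT3G04920) measured 319.8, 484 and 272 CPM untreated and 192, 236 and 322 with ABA, -0.52 ± 0.25 (SE, adjusted p = 0.0987), and was the gene of the 47 that did not pass the test and whose groups overlapped: ABA replicate 3 lay above untreated replicates 1 and 3. RPS18C (AT4G09800) measured 322, 459.8 and 268 CPM untreated and 218, 219.8 and 254 with ABA, -0.60 ± 0.21 (SE, adjusted p = 0.028), a call lost without wild type untreated replicate 2 (-0.31), without ABA replicate 1 (-0.56) and without ABA replicate 2 (-0.57), and after the correction for GC content and length (-0.15). RPS15aA (AT1G07770) changed by -0.84 ± 0.25 (SE, adjusted p = 0.0118). RPS3A (AT2G31610), whose protein lies at the mRNA entry, changed by -0.97 ± 0.23 (SE, adjusted p = 0.00297). With ABA each of these called genes stayed below every untreated library.

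The stalk recruits the elongation factors. RPP0B (AT3G09200), whose protein anchors it, measured 1146, 1523 and 1055 CPM untreated and 238, 282 and 245 with ABA, -2.28 ± 0.40 (SE, adjusted p = 0.000417). RPP1A (AT1G01100) measured 222, 342 and 170.1 CPM untreated and 42.3, 45.7 and 50.1 with ABA, -2.41 ± 0.27 (SE, adjusted p = 1.41e-05). In both, all 3 ABA libraries lay far below the untreated ones. RACK1A (AT1G18080), known from mutants that respond more strongly to ABA, measured 625, 823 and 502 CPM untreated and 96.6, 96.5 and 112 with ABA, -2.68 ± 0.32 (SE, adjusted p = 2.69e-05), also with no overlap.

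In the mutant, ABA also lowered these genes: 42 of the 47 fell and none rose, where 21.1% of all genes tested were called lower and 21.5% higher. The median log2 fold change was -1.16, against -0.004 over all genes tested, and the 47 values ranged from -2.09 to -0.38. All 29 of the 60S subunit fell (median -1.16), 11 of the 15 of the 40S subunit (median -0.98), RPP0B and RACK1A. Those that did not pass were RPP1A (-0.67, adjusted p = 0.0508), RPS10B (-0.52, adjusted p = 0.144), RPS15aA (-0.60, adjusted p = 0.0661), RPS18C (-0.38, adjusted p = 0.168) and RPS24A (-0.63, adjusted p = 0.0593). The libraries of the 2 groups did not overlap for 17 of the 47 genes, against 50.2% of all genes tested. Mutant ABA replicate 3 lay above mutant untreated replicate 1 for 29 of the 47. The count of called genes was 23 without mutant untreated replicate 3, 23 without mutant ABA replicate 1, 23 without mutant ABA replicate 2, and 45 without mutant ABA replicate 3. Those fits called 16.4%, 14.6%, 16% and 21.3% of all genes lower, in the same order.

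The largest fall in the mutant was in RPSaB, with 11.8, 18.5 and 18 CPM untreated and 3.51, 2.59 and 5.32 with ABA, -2.09 ± 0.33 (SE, adjusted p = 0.000303). All ABA libraries lay below all untreated ones. RPL8A measured 34.9, 102 and 165 CPM untreated and 28.1, 18.3 and 50.3 with ABA, -1.64 ± 0.47 (SE, adjusted p = 0.0134). RPP0B measured 216, 507 and 681 CPM untreated and 142, 88.7 and 233 with ABA, -1.60 ± 0.39 (SE, adjusted p = 0.00547). In RPL8A and RPP0B the ABA replicate 3 was above the untreated replicate 1, so the groups overlapped. The call of RPL8A was lost without mutant untreated replicate 3 (-1.09), mutant ABA replicate 1 (-1.55) or mutant ABA replicate 2 (-1.36). RPS3A measured 555, 601 and 601 CPM untreated and 242, 283 and 375 with ABA, a smaller change of -0.97 ± 0.23 (SE, adjusted p = 0.00441) with well separated groups. RPL5B, known as OLIGOCELLULA7 for its effect on leaf cell number, likewise measured 1017, 1188 and 1140.3 CPM untreated and 409.7, 448 and 695 with ABA, -1.11 ± 0.25 (SE, adjusted p = 0.00319), with no overlap.

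For pairs of paralogs among the 47, the log2 fold changes in the mutant were -1.19 for RPL4A and -1.22 for RPL4D, -0.96 for RPL5A and -1.11 for RPL5B, -1.50 for RPS6A and -1.32 for RPS6B, and -0.91 for RPL23aA and -1.04 for RPL23aB. The pairs further apart were -1.54 for RPL24A and -0.90 for RPL24B, -1.33 for RPSaA and -2.09 for RPSaB, and -0.93 for RPS18A against the uncalled -0.38 of RPS18C. RACK1A changed by -1.01 ± 0.31 (SE, adjusted p = 0.0181), from 83.4, 162 and 187 to 61, 51.6 and 102 CPM, and its groups overlapped at mutant untreated replicate 1 and ABA replicate 3. That call was lost without mutant untreated replicate 2 (-0.93) or 3 (-0.79), or mutant ABA replicate 1 (-0.91) or 2 (-0.83). Without the same libraries, 1 at a time, the calls of RPL24B (-0.83 to -0.72), RPS18A (-0.88 to -0.71) and RPSaA (-1.23 to -1.02) were lost too. Those of RPL23aA (-0.78 and -0.79) and RPL23aB (-0.86 and -0.95) were lost without mutant ABA replicate 1 or 2, and that of RPS6B (-1.01) without mutant untreated replicate 3.

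**Figure D3:**
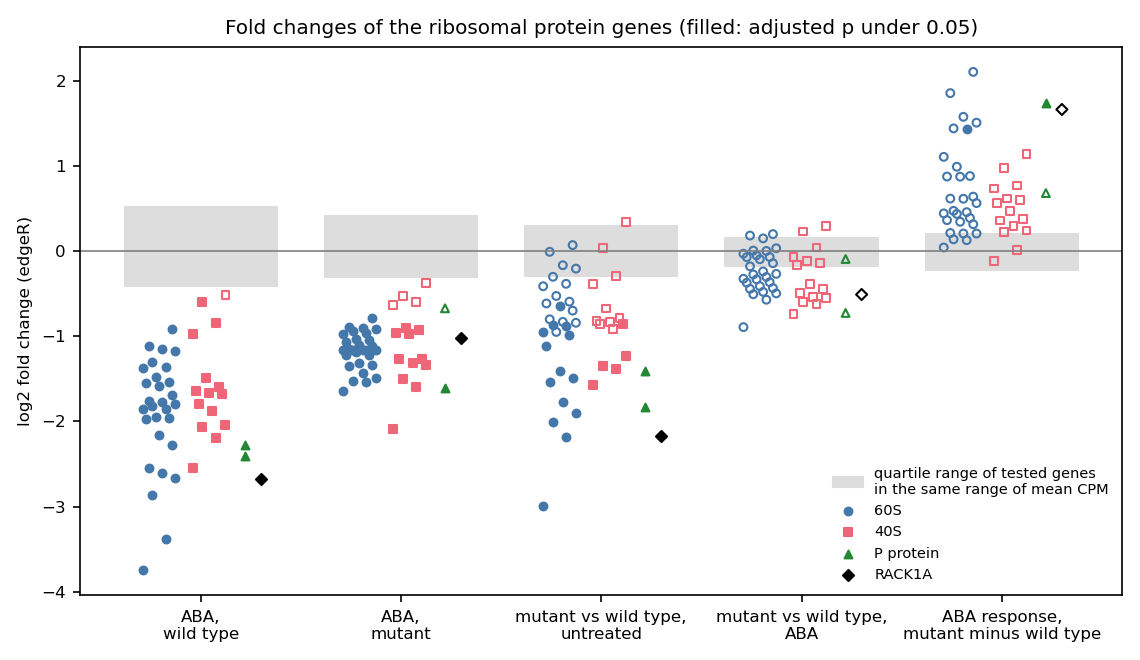
Log2 fold change of each of the 47 genes in the 5 comparisons, by subunit. Filled points have an adjusted p under 0.05. Grey bands span the quartile range of the 12227 tested genes in the same range of mean CPM, without cytosolic ribosomal protein genes. All points lie below the band in both ABA comparisons, where 46 and 42 genes were called lower. Most lie below it in the untreated mutant (22 called lower) and most above it in the interaction (2 called). None are filled in the comparison of genotypes under ABA.

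Without treatment, 22 of the 47 genes were called lower in the mutant than in wild type and none higher, where 14.8% of all genes tested were called lower and 8.77% higher. The median log2 fold change was -0.85, against 0.01 over all genes tested, with a range of -3.00 to 0.34. Called lower were 14 of the 29 genes of the 60S subunit, 5 of the 15 of the 40S subunit, both P protein genes and RACK1A. The libraries did not overlap for 34 of the 47 genes, against 45.2% of all genes tested. After a correction for GC content and length the count was 12 and the median -0.50, with 11.9% of all genes then called lower. The count was 11 without wild type untreated replicate 2, 12 without mutant untreated replicate 1, 14 without wild type untreated replicate 1 and 14 without mutant untreated replicate 2. Those fits called 9.17%, 8.97%, 10.2% and 8.9% of all genes lower, in the same order.

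RPL8A again differed most. It measured 783, 1046 and 579 CPM in wild type and 34.9, 102 and 165 in the mutant, -3.00 ± 0.49 (SE, adjusted p = 0.00106), with all mutant libraries far below. RPL21A measured 341, 514 and 310.4 CPM in wild type and 44.8, 89.9 and 121 in the mutant, -2.19 ± 0.37 (SE, adjusted p = 0.00143). RACK1A measured 625, 823 and 502 CPM in wild type and 83.4, 162 and 187 in the mutant, -2.17 ± 0.32 (SE, adjusted p = 0.000504). In these 3 genes no library overlapped between genotypes, and mutant untreated replicate 1 was the lowest. After the correction for GC content and length RPL8A was at -1.97 and RACK1A at -1.27, both still called. RPP1A measured 222, 342 and 170.1 CPM in wild type and 57, 70 and 79.3 in the mutant, -1.83 ± 0.26 (SE, adjusted p = 0.000444), and RPL12A 372, 557 and 327 and 132, 142 and 174 CPM, -1.49 ± 0.23 (SE, adjusted p = 0.000799). For both, mutant libraries lay close together and below the wild type. RPP0B changed by -1.41 ± 0.39 (SE, adjusted p = 0.0204), a call lost without wild type untreated replicate 2 (-1.19), mutant untreated replicate 1 (-1.06) or mutant untreated replicate 2 (-1.43), and after the correction for GC content and length (-0.85).

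The other called 60S genes were lower in the mutant by log2 fold changes of -2.01 for RPL15A, -1.90 for RPL27aC, -1.77 for RPL23A, -1.54 for RPL19A and -1.40 for RPL9B, and -1.11 for RPL13B, -0.98 for RPL10A, -0.95 for RPL11A, -0.88 for RPL4D, -0.87 for RPL28A and -0.65 for RPL4A. Of the 5 called 40S genes, 4 gave -1.39 for RPS13B, -1.34 for RPS8A, -1.23 for RPSaA and -0.85 for RPS10B (log2 fold changes). After the correction for GC content and length RPL4A was at 0.16, RPL4D at -0.16 and RPSaA at -0.27, none of them called. The calls of RPL4A and RPL4D were lost without wild type untreated replicate 1 (-0.57 and -0.88) or 2 (-0.60 and -0.65) or mutant untreated replicate 1 (-0.49 and -0.73), and that of RPSaA without any 1 of the untreated libraries except mutant untreated replicate 3 (-1.36 to -0.89). The 3 genes with positive values did not pass the test: RPS24A (0.34, adjusted p = 0.336), RPL10aB (0.07, adjusted p = 0.867) and RPS3A (0.03, adjusted p = 0.927). RPL5A and RPL5B gave -0.21 and -0.01, neither called. RPS6A and RPS6B gave -0.84 ± 0.39 (SE, adjusted p = 0.131) and -0.91 ± 0.36 (SE, adjusted p = 0.0805), while in both genes every mutant library lay below every wild type one.

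With ABA, the genotypes were not told apart in these genes. None of the 47 was called by edgeR, where 1.61% of all genes tested were called higher in the mutant and 0.178% lower. DESeq2 also called 0, against 2.8% of all genes higher and 0.777% lower. At an unadjusted p under 0.05 there was 1, lower in the mutant, against 7.59% of all genes higher and 5.52% lower. The median log2 fold change was -0.28 (range -0.89 to 0.29), against -0.01 over all genes tested, and 38 of the 47 values were negative. The median moved with single libraries, to -0.42 without wild type ABA replicate 1, -0.09 without wild type ABA replicate 3, -0.15 without mutant ABA replicate 1, -0.12 without mutant ABA replicate 2 and -0.61 without mutant ABA replicate 3. Libraries did not overlap for 4 genes, RPL8A, RPP0B and RPS8A among them, each lower in the mutant, against 19.4% of all genes tested. RPL8A measured 64.1, 61 and 54.4 CPM in wild type with ABA and 28.1, 18.3 and 50.3 in the mutant with ABA, -0.89 ± 0.46 (SE, adjusted p = 0.428). RPS8A measured 309, 334 and 281 and 168, 110.2 and 273 CPM, -0.74 ± 0.40 (SE, adjusted p = 0.443). A missed threshold does not show equal levels. At the other end RPL28A gave 0.00 ± 0.27 (SE, adjusted p = 0.999).

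The interaction subtracts the wild type ABA response from that of the mutant, so a positive value here means a smaller fall in the mutant. Of the 47 values 46 were positive, with a median of 0.56 against -0.01 over all genes tested. That median was 0.16 without mutant ABA replicate 3, 0.28 without wild type untreated replicate 2, 0.33 without mutant untreated replicate 1, and 0.27 after the correction for GC content and length. Because the untreated libraries enter both the genotype comparison and the interaction, these values share their samples. The test called 2 of the 47 higher and 0 lower, where 1.66% of all genes tested were called higher and 0.141% lower. At an unadjusted p under 0.05 there were 13 higher and 0 lower, against 9.3% and 2.94% of all genes tested. DESeq2 called 6 higher and 0 lower, against 3.25% and 0.417% of all genes. The 2 called genes were RPP1A, with 1.74 ± 0.36 (SE, adjusted p = 0.0304), and RPL12A, with 1.44 ± 0.33 (SE, adjusted p = 0.0432). RPP1A fell from 245 ± 87.9 to 46.0 ± 3.90 CPM (mean ± SD, n = 3) in wild type and measured 68.8 ± 11.2 and 43.2 ± 13.7 CPM in the mutant. RPL12A fell from 419 ± 122 to 71.6 ± 9.66 CPM in wild type and from 149 ± 21.6 to 69.1 ± 18.4 CPM in the mutant. Both genes ended near the same level with ABA in both genotypes. Both calls were lost, and the count was then 0, without wild type untreated replicate 1 or 2, any 1 wild type ABA replicate, mutant untreated replicate 1 or 2, or mutant ABA replicate 3. Those fits called 0.544% to 1.44% of all genes higher. The values were then 1.37 to 1.80 for RPP1A and 1.12 to 1.53 for RPL12A, and RPL12A alone was lost without mutant ABA replicate 2 (1.51). Larger estimates that did not pass were those of RPL8A (2.1, adjusted p = 0.151) and RPL21A (1.85, adjusted p = 0.0995). RACK1A gave 1.66 ± 0.43 (SE, adjusted p = 0.0771). The negative value was that of RPS24A, -0.11 ± 0.35 (SE, adjusted p = 0.927).

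In some families the share of the summed level held by 1 paralog differed between groups. RPL8A held 72.3 ± 1.98% of the summed CPM of the RPL8 family in untreated wild type (mean ± SD, n = 3), 48.4 ± 3.62% with ABA, 43.4 ± 3.72% in the untreated mutant and 43.9 ± 0.603% in the mutant with ABA. The other tested gene of the family, RPL8C (AT4G36130), changed under ABA in wild type by -2.25 ± 0.43 (SE, adjusted p = 0.000832). RPL10A, known as a target of the antiviral receptor kinase NIK1, held 61.5 ± 3.94%, 35.8 ± 8.31%, 45.4 ± 5.33% and 33.7 ± 6.78% of its family in the same order. Its paralog RPL10C (AT1G66580), also named SENESCENCE ASSOCIATED GENE 24, measured 557, 590.2 and 481 CPM in untreated wild type and 653, 480.4 and 380.5 with ABA, -0.10 ± 0.23 (SE, adjusted p = 0.713), with overlapping groups. RACK1A held 53.1 ± 1.68%, 43.5 ± 8.03%, 29.7 ± 5.94% and 36.5 ± 3.35% of the RACK1 family. RPL6A held 51.0 ± 4.07%, 35.1 ± 5.30%, 47.2 ± 4.27% and 40.1 ± 3.82%. RPS18C, the gene with a small response, had shares of 36.2 ± 1.88% untreated and 49.6 ± 2.58% with ABA in wild type, and 41.1 ± 1.85% and 50.9 ± 5.64% in the mutant. RPL26A held 86.3 ± 1.46% in untreated wild type and 96.6% to 97.2% on average in the other 3 groups. These shares are not per length and were not tested. In untreated wild type and wild type with ABA the shares of RPL8A, RPL10A, RPL6A, RPS18C and RPL26A did not overlap, while those of RACK1A did.

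**Figure D4:**
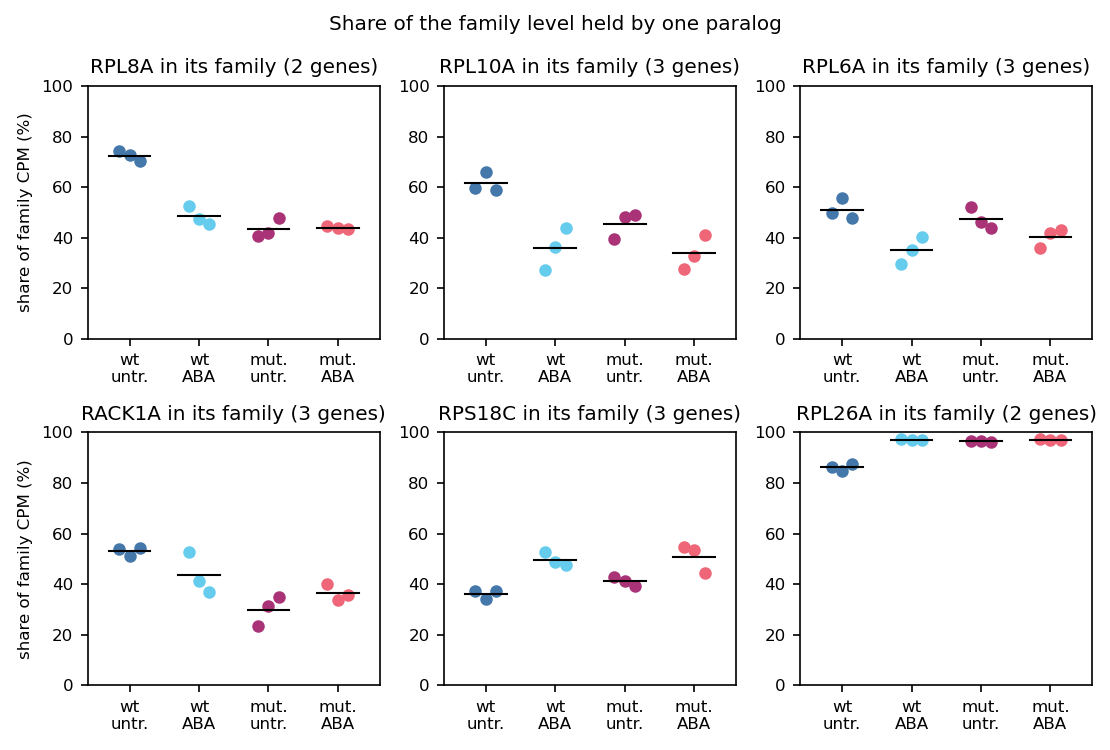
Share (%) of the summed CPM of a ribosomal protein family held by the named paralog, for each library (points) and as the group mean (lines, n = 3). The RPL8A share is near 72.3% in untreated wild type and near 43.4% to 48.4% in the other groups, and the RPL26A share is lowest in untreated wild type.

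Of the 39 families, 8 had a pair among the 47. Under ABA in wild type, the paralogs of a pair differed by 0.03 (RPL5) to 0.89 (RPS18) in log2 fold change, with 0.12 for RPS6, 0.25 for RPL23a, 0.32 for RPL4, 0.49 for RPSa and 0.61 for RPL24. For comparison, the 47 values had an SD of 0.66, and the 12227 genes with mean CPM in the same range an SD of 1.01 and a median of 0.09 (log2). Those genes span 13.5 to 1077.6 CPM, leave out the listed cytosolic ribosomal protein genes, and were not matched gene by gene on level. In the mutant the SD under ABA was 0.32 for the 47 and 0.90 for those genes. For the genotypes under ABA it was 0.28 and 0.34. The 47 were the more spread for the untreated genotypes (0.67 against 0.59) and in the interaction (0.53 against 0.44). Across the 47 genes, the fold change under ABA in wild type was more negative at higher GC content (Spearman's rho = -0.48), and rho was -0.41 under ABA in the mutant and -0.55 for the untreated genotypes. With exon length rho was 0.12 under ABA in wild type, and with the number of site II matches 0.06. With the mean level per kilobase, from the same libraries, rho was 0.40 under ABA in wild type, 0.02 under ABA in the mutant, 0.34 for the untreated genotypes and -0.42 for the interaction. These describe 47 genes measured in the same libraries, whose GC content spans 36.8% to 46.6%.

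The other genes of the cytosolic ribosome were counted in the same way. Of all genes tested, 28.2% were called lower under ABA in wild type, 21.1% under ABA in the mutant and 14.8% in the untreated mutant. Under ABA in wild type 161 of the 166 tested were called lower and none higher (median -1.72), and 143 of 166 in the mutant (median -1.06). The untreated mutant had 75 of 166 lower and none higher (median -0.86). RPL26B (AT5G67510) had the largest fall under ABA in wild type, from 122, 200.4 and 94.9 to 6.31, 7.22 and 7.78 CPM, -4.29 ± 0.45 (SE, adjusted p = 9.43e-06), and measured 7.42, 16.2 and 24.6 CPM in the untreated mutant, -3.10 ± 0.42 (SE, adjusted p = 0.000324). All of its ABA and mutant libraries lay far below the untreated wild type. In the mutant under ABA the largest fall was that of RPL27A (AT2G32220), -2.08 ± 0.52 (SE, adjusted p = 0.00654). In the interaction 5 of the 166 were called higher (RPL26B, RPL27B, RPS16B, RPS30A and RPS30B) and none lower, against 1.66% and 0.141% of all genes tested.

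Plastid ribosomal protein genes, which serve chloroplast translation, were called lower for 29 of 32 under ABA in wild type (median -1.10), 17 of 32 in the mutant (median -0.59) and 18 of 32 in the untreated mutant (median -0.80), with none higher. Of all genes tested, 28.2%, 21.1% and 14.8% were called lower in the same order. Ribosome biogenesis genes, which process rRNA and assemble subunits, had 32 of 37 lower and 1 higher under ABA in wild type (median -1.06), and 34 lower and 1 higher in the mutant (median -1.07). In the untreated mutant 2 of these 37 were lower and 1 higher, with a median of -0.05, where the 47 ribosomal protein genes had a median of -0.85. AT3G03920, a Gar1-type protein of the H/ACA particles, fell most under ABA in wild type, -2.87 ± 0.28 (SE, adjusted p = 4.33e-06) (-1.65 after the correction for GC content and length), and fibrillarin gene FIB2 (AT4G25630) in the mutant, -1.97 ± 0.36 (SE, adjusted p = 0.000879). The gene called higher in both was AT4G31420, which encodes a zinc finger protein, 0.66 ± 0.16 (SE, adjusted p = 0.00441) in wild type.

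Translation factor genes were called lower for 33 of 39 under ABA in wild type, with 1 higher (median -0.79), for 27 with 2 higher in the mutant (median -0.62), and for 17 with none higher in the untreated mutant (median -0.49). ELF5A-3 (AT1G69410), an eIF5A gene, was called higher under ABA in wild type, 0.91 ± 0.15 (SE, adjusted p = 0.000334), and in the mutant, 1.23 ± 0.15 (SE, adjusted p = 5.22e-05). Of all genes tested, 25.2% were called higher and 28.2% lower under ABA in wild type, and 21.5% and 21.1% in the mutant. In the untreated mutant these shares were 8.77% and 14.8%. Genes of the TOR pathway had 4 of 9 higher and none lower under ABA in wild type, and 3 higher and none lower in the mutant. The largest rise was in S6K2 (AT3G08720), a kinase that phosphorylates RPS6, from 15, 15.6 and 16.3 to 39.6, 28 and 26.6 CPM in wild type, 1.01 ± 0.17 (SE, adjusted p = 0.000326). In the mutant it measured 18.7, 25 and 20 CPM untreated and 38, 30.7 and 34.8 with ABA, 0.70 ± 0.17 (SE, adjusted p = 0.00507). RPS6A and RPS6B were called lower, and S6K2 higher, under ABA in both genotypes.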

How the data were processed

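The deposited table holds raw counts per gene, and the values show no normalization by the authors. Per the submitters' processing notes, Trim Galore 0.3.3, edgeR and the TAIR10 build were used; no source used here names the aligner, the counting tool or the strand setting. Per the labels' protocols, the libraries came from a stranded mRNA kit. Counts were filtered with filterByExpr, which left 21322 genes, scaled with TMM factors and fitted as 4 group means by the quasi-likelihood test of edgeR 4.0.16 (R 4.3.3), with Benjamini-Hochberg adjustment over all genes in each comparison. Every adjusted p comes from that fit, and an SE is the absolute log2 fold change over the square root of F. The workflow was tested on simulated data. The members and the lists of other genes were chosen with earlier results of these data known. By rule, genes with the 3 largest called changes of a comparison were given with values per library or group means. The rule also held a panel of paralogs, and for part of it only fold changes are given. RPS24A, RPS18C, RPS15aA, RPS3A, RPS8A, RPL5B, RPL28A, RPL10C, RPL27B, RPS16B, RPS30A and RPS30B are further genes chosen after their values were seen, as were the families in the plot of paralog shares. Some genes that meet the rule are not reported here. Replicate numbers did not pair the libraries, which were treated as unpaired. The 227 listed genes, exon length, GC content and promoters came from TAIR10.1; no positions are given because the builds differ. Alternatives were other scalings, no filter, a fold threshold, DESeq2 1.42.0, a GC and length correction, a replicate block, fits of only the 2 groups compared, and each library left out. P-values rest on the spread between seedling samples within groups (3 per group), estimated over all 4 groups together and in part across genes.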

Additional observations from a re-analysis of the deposited data

Results flagged for a closer look

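The ABA response differed between the genotypes, by the test of the difference itself, for 2 of the 47 genes, 5 of the 166 other cytosolic ribosomal protein genes tested and 2 of the 32 plastid ones, where 1.66% of all genes tested were called higher. The mutant response minus the wild type response, on the log2 scale, was 1.74 for RPP1A (adjusted p = 0.0304) and 1.44 for RPL12A (adjusted p = 0.0432), by edgeR's quasi-likelihood test. It was 2.67 for RPL26B (adjusted p = 0.0423), 2.34 for RPS16B (adjusted p = 0.0141), 1.98 for RPL27B (adjusted p = 0.0247), 1.89 for RPS30B (adjusted p = 0.0109) and 1.41 for RPS30A (adjusted p = 0.0442). In RPP1A, RPL12A and RPL26B the untreated mutant lay below untreated wild type, and ABA libraries of both genotypes were low. RPL26B measured 139 ± 54.8 CPM (mean ± SD, n = 3) in untreated wild type, 7.10 ± 0.744 with ABA, 16.1 ± 8.59 in the untreated mutant and 5.26 ± 2.86 in the mutant with ABA. With each library left out in turn, the calls of RPP1A, RPL12A, RPL26B, RPL27B (1.57 to 1.93) and RPS30A (1.06 to 1.51) were each lost in several fits. That of RPS16B was lost without mutant untreated replicate 2 (2.34) or mutant ABA replicate 3 (2.04), and that of RPS30B without mutant untreated replicate 2 (1.82). Reads of RPS30B could be hard to assign, since 67.4% of its exonic stretches of 50 bases also occur in AT4G29380.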

How the results depend on the processing

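Under ABA in wild type the count of genes called lower was 42 to 46 in the alternatives to the main fit and 43 to 47 when single libraries were left out. In the mutant it was 31 to 46, and 23 to 45 when single libraries were left out. In the untreated mutant it was 12 after the correction for GC content and length, and 16 to 26 in the other alternatives, with 11 to 23 when single libraries were left out. The share of all genes called lower with single libraries left out was 14.6% to 21.4% under ABA in the mutant. In the untreated mutant that share was 8.9% to 16%. In the interaction 1 gene was called higher with upper-quartile factors and 6 with DESeq2, and 0 to 3 when single libraries were left out. Under ABA no gene of the 47 was called between genotypes in any fit. One direction turned: RPL4A in the untreated mutant was at 0.16 after the correction for GC content and length, where the median of the 47 was -0.50. The cause was not tested. Of 1015 values of single named genes under the alternatives, 886 kept direction and call, 128 kept the direction and lost the call, and 1 is the turn above. Upper-quartile factors moved the median of all genes tested to -0.13 under ABA in wild type and -0.12 in the mutant. Residuals of same-numbered libraries correlated above 0.1 in 6 of 18 pairs between groups (range -0.363 to 0.537), and 4 of 12 libraries correlated best with their own number. With a replicate block the counts were 46, 42, 23 and 0 lower in the first 4 comparisons and 2 higher in the interaction.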
